A study of Mus musculus with 16 samples.

Results

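Saa3, Lcn2, S100a8, S100a9, 1100001G20Rik and Slpi encode secreted acute phase and alarm proteins, and their levels were followed through dendritic cells grown from the marrow of lupus-prone NZM2410 mice. The 6 genes were taken by the symbols in the deposited FPKM table (mapped fragments scaled to transcript length in kilobases and to M fragments per library, M standing for mega), which holds 24001 gene rows, and each symbol matched 1 row. They were chosen by their FPKM levels in the 8 groups, which were known to differ, so these levels and every difference computed from them are a description, and no p-value is given for any of the 6. All 6 reached the minimum used for testing, which was 1 FPKM in at least 2 libraries. RefSeq gives 1100001G20Rik as an older symbol of Wfdc21. Wfdc17, a neighbouring gene, has a row of its own and is not one of the 6.

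Saa3 is an inducible serum amyloid A, a family of apolipoproteins that liver and macrophages secrete during infection and tissue damage. Lcn2 (lipocalin 2) binds bacterial siderophores and so withholds iron. S100a8 and S100a9 are the 2 subunits of calprotectin, a calcium- and zinc-binding complex that myeloid cells store in the cytosol and that acts as an alarm signal through TLR4 and other receptors once released. Slpi is a secretory inhibitor of leukocyte serine proteases such as neutrophil elastase, built of WAP (whey acidic protein) domains, and Wfdc21 also belongs to the WAP domain family. In myeloid cells several of these genes are known targets of NF-kB, its cofactor IκBζ, C/EBP factors and STAT3.

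Marrow was cultured with IL-4 (10 ng/ml) and GM-CSF (20 ng/ml), and cells were collected at day 7. For 24 h they received vehicle or an agonist pair, loxoribine for TLR7 and CpG DNA (1 μg/ml) for TLR9. Loxoribine is labelled as 200 μmol/ml, and whether that unit is right was not checked. There were 4 arms with 2 vehicle and 2 agonist libraries each. By the source labels, WT mice had intact estrogen receptor α (ERα) and KO mice a truncated form, ERα short, and neither arm had surgery. ERKO OVX mice (ERα short) and Ex3a OVX mice (ERα null) were ovariectomized at 4 to 8 weeks of age and carried a 0.25 mg, 90-day 17β-estradiol pellet. No arm had surgery together with intact ERα. The genotype labels and descriptions contradict the source labels: they call KO vehicle and ERKO OVX vehicle null, and both Ex3a OVX groups ERα short. Groups here follow the source labels, so an arm's name stands for that label and its allele was not checked.

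Surgery could not be told apart from sequencing depth, FPKM total or library numbering. The unoperated libraries had an estimated 40.2 to 47.4 M fragments and FPKM sums of 481738 to 522287, and the ovariectomized libraries 19.0 to 25.6 M fragments and sums of 612322 to 696321. Notes on 5 libraries speak of corrupted read files. The 2 libraries of each ovariectomized group agreed about within sampling noise (variance 1.12 to 1.15 times the sampling variance) and were averaged into 1 sample. The unoperated pairs differed more (1.85 to 2.91 times). The labels do not tie the 2 libraries of a group to separate animals or cultures, so errors and p-values cover the spread between libraries alone, which may be technical. Summed FPKM of 13 dendritic cell markers was 6307 to 8124 in unoperated and 11610 to 15660 in ovariectomized libraries. In ERKO OVX against KO with vehicle, 5 of the 13 had a higher mean (Itgax, Cd74, H2-Aa, H2-Ab1 and H2-Eb1) and 7 a lower one, among them Zbtb46, a factor of conventional dendritic cells, at 21.4 and 22.8 FPKM in KO and 4.28 and 4.20 in ERKO OVX. Itgax (CD11c) was at 86.0 to 155 FPKM in all libraries, and Cd209a was at 0 in 14 of 16. Summed FPKM of 11 macrophage and monocyte markers was 1061 to 1478 in unoperated and 5091 to 6698 in ovariectomized libraries, and that of 7 basophil and mast cell markers was 1.90 to 2.85 and 36.8 to 119.9. Of 18 neutrophil lineage markers, 17 had rows, with sums given below beside the results they move with. Hepatocyte markers summed to at most 0.0654 FPKM. In such bulk samples, more cells of a type and more RNA per cell cannot be told apart.

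Sequences before the start site are shown for 4 genes that are described side by side below: Saa3 with Lcn2, and the calprotectin genes S100a8 with S100a9. They are the 250 bases upstream of a RefSeq start (GRCm38.p6, 5′ to 3′ on the gene's strand). Capitals mark matches to a C/EBP motif (TTGCNNAA, where N is any base), searched on both strands.
Saa3: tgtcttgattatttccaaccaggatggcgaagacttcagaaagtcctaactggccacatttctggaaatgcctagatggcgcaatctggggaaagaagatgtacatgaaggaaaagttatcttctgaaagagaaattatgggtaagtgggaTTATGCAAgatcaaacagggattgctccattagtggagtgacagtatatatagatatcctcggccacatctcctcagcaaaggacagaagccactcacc
Lcn2: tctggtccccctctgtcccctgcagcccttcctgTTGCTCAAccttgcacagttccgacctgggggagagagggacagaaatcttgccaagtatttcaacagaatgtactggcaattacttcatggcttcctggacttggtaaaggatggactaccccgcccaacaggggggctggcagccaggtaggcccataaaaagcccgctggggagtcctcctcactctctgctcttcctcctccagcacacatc
S100a8: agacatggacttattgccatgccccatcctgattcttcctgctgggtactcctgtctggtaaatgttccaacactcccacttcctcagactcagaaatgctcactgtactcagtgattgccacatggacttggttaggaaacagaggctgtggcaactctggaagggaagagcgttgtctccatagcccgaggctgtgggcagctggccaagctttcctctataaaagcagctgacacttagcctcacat
S100a9: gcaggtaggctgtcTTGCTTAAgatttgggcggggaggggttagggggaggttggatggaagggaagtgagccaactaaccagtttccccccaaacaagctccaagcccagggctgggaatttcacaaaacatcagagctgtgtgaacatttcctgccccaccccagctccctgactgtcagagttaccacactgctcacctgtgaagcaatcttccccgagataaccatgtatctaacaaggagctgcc
The windows are chr7:46715677-46715926 (minus strand), chr2:32387740-32387989 (minus), chr3:90668821-90669070 (plus) and chr3:90695722-90695971 (minus). Gene bounds reach further upstream for Saa3 (RefSeq, to 46719615), Lcn2 (GENCODE, to 32388252), S100a8 (GENCODE, from 90668978) and Slpi (GENCODE, to 164389095). The windows of these genes thus lie wholly or partly within the annotated gene. The C/EBP motif was found in 4 of the 5 genes with a RefSeq promoter entry: Saa3 (TTATGCAA, first base 99 bases before the start), Lcn2 (TTGCTCAA, 216 bases before), S100a9 (TTGCTTAA, 236 bases before) and Slpi (TTGAGCAA, 241 bases before, chr2:164356508-164356757, minus strand). S100a8 held none. Of all 32851 promoter windows of this length, 9.56% held it. The motifs were settled after matches had been seen, so nothing is read from 4 of 5 against that share. The NF-kB consensus (7.25% of windows), a STAT motif (TTCNNNGAA, 7.02%), an AP-1 motif (TGANTCA, 6.75%) and the half-site of an estrogen response element (AGGTCA, 14%) were found in none of the 5 windows on either strand. No match overlapped another. A match is a description of the letters and no evidence of binding.

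Saa3 (chr7:46711998-46715700, minus strand, GENCODE vM21 on GRCm38) reached the highest levels of the 6. It was at 93.7 and 110.1 FPKM in WT vehicle, 63.7 and 63.2 in KO vehicle, 910.1 and 944.0 in WT agonist and 635.3 and 644.9 in KO agonist libraries. In ERKO OVX it was at 5015 and 5040 with vehicle and 5644 and 5627 with agonists, and in Ex3a OVX at 4022 and 4009 with vehicle and 7120 and 7120 with agonists. No 2 groups overlapped, and the highest group mean was 112 times the lowest. In the ovariectomized libraries Saa3 ranked from 9 to 12 among all gene rows. The liver-type relatives Saa1 and Saa2, which are nearly identical to each other, did not exceed 0.0976 and 0.234 FPKM in any library.

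Lcn2 (chr2:32384633-32388252, minus strand) had a like profile at lower levels. WT libraries had 21.1 and 25.9 FPKM with vehicle and 106.1 and 103.4 with agonists, and KO libraries 15.8 and 14.6 and then 119.5 and 126.1. ERKO OVX libraries had 1085 and 1090 with vehicle and 1261 and 1251 with agonists, and Ex3a OVX libraries 603.2 and 594.1 and then 1374 and 1362. Groups did not overlap, and both genes were lowest in KO vehicle and highest in Ex3a OVX agonist, with a 90.2-fold span for Lcn2. Over the 8 group means of log2(FPKM + 1), Pearson's r between Saa3 and Lcn2 was 0.99. This is a description, because the points share arms and sequencing depth.

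**Figure D1:**
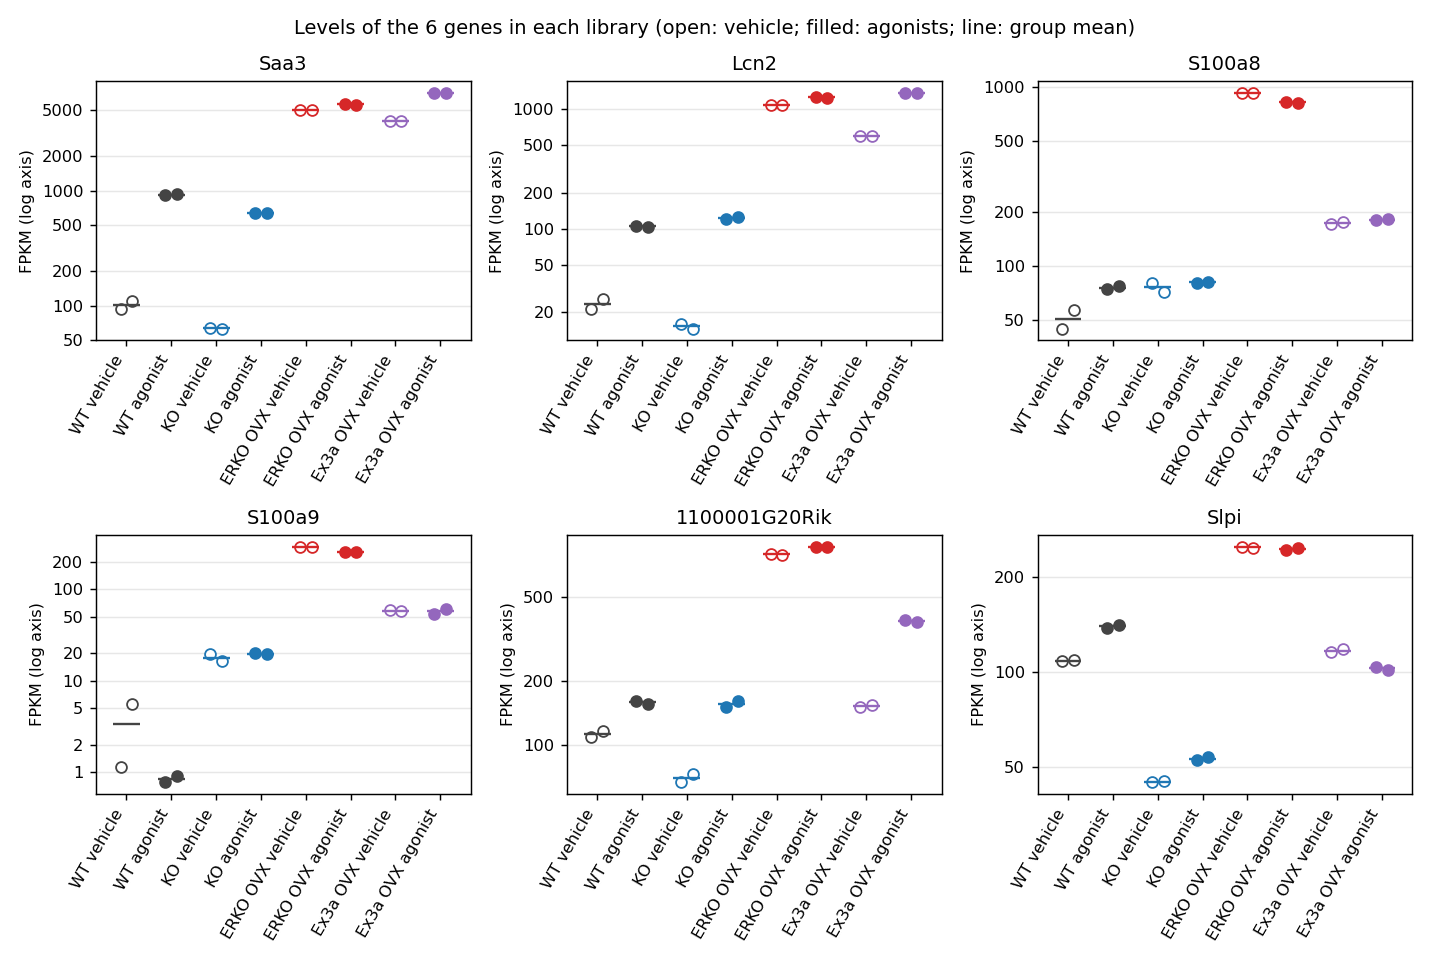
FPKM of the 6 genes (log axes) in each of the 16 libraries, by group. Open circles are vehicle, filled circles agonist libraries, and lines are group means. Saa3 and Lcn2 are above all unoperated libraries in every ovariectomized library, and S100a8, S100a9 and 1100001G20Rik are highest in ERKO OVX.

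The calprotectin genes lie close together on chromosome 3, S100a8 at chr3:90668978-90670035 (plus strand) and S100a9 at chr3:90692632-90695721 (minus strand). S100a8 was at 44.8 and 57.0 FPKM in WT vehicle, 74.4 and 76.98 in WT agonist, 80.1 and 71.7 in KO vehicle and 80.4 and 81.6 in KO agonist. It was at 923.6 and 925.7 in ERKO OVX vehicle, 826.0 and 815.7 in ERKO OVX agonist, 171.1 and 175.0 in Ex3a OVX vehicle and 180.8 and 182.5 in Ex3a OVX agonist. The order of arms was thus ERKO OVX, Ex3a OVX, then the unoperated arms, where KO vehicle overlapped WT agonist.

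S100a9 was below 6 FPKM in every WT library and above 16 in all others. WT libraries had 1.15 and 5.62 FPKM with vehicle and 0.777 and 0.906 with agonists, and KO libraries 19.5 and 16.4 with vehicle and 19.9 and 19.5 with agonists. ERKO OVX libraries had 292.5 and 289.4 with vehicle and 251.7 and 253.5 with agonists, and Ex3a OVX libraries 59.2 and 57.3 with vehicle and 53.9 and 61.0 with agonists. Treatments overlapped within KO and within Ex3a OVX. The 2 WT vehicle libraries differed 4.88-fold, the widest spread within a group for any of the 6 genes.

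The balance of the 2 subunit RNAs set WT apart from the other arms. FPKM is scaled by transcript length, but the lengths used were not checked, so the percentages below are ratios of FPKM values. The depth estimate fitted best with 180 bases taken off transcript length in unoperated and 160 in ovariectomized libraries. WT and KO, both unoperated, shared this value. S100a9 was at 2.57% and 9.85% of the S100a8 level in WT vehicle and at 1.04% and 1.18% in WT agonist libraries. In KO it was at 22.8 to 24.8%, in ERKO OVX at 30.5 to 31.7% and in Ex3a OVX at 29.8 to 34.6% over the 4 libraries of each arm. S100a8 was 1.49 times as high in KO as in WT with vehicle (75.9 ± 5.91 and 50.9 ± 8.66 FPKM, SD, n = 2 each) and S100a9 5.30 times (17.9 ± 2.22 and 3.38 ± 3.16 FPKM, SD, n = 2 each). With agonists the ratios were 1.07 (81.0 ± 0.859 and 75.7 ± 1.84 FPKM, SD, n = 2 each) and 23.4 (19.7 ± 0.334 and 0.842 ± 0.0916 FPKM, SD, n = 2 each).

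**Figure D2:**
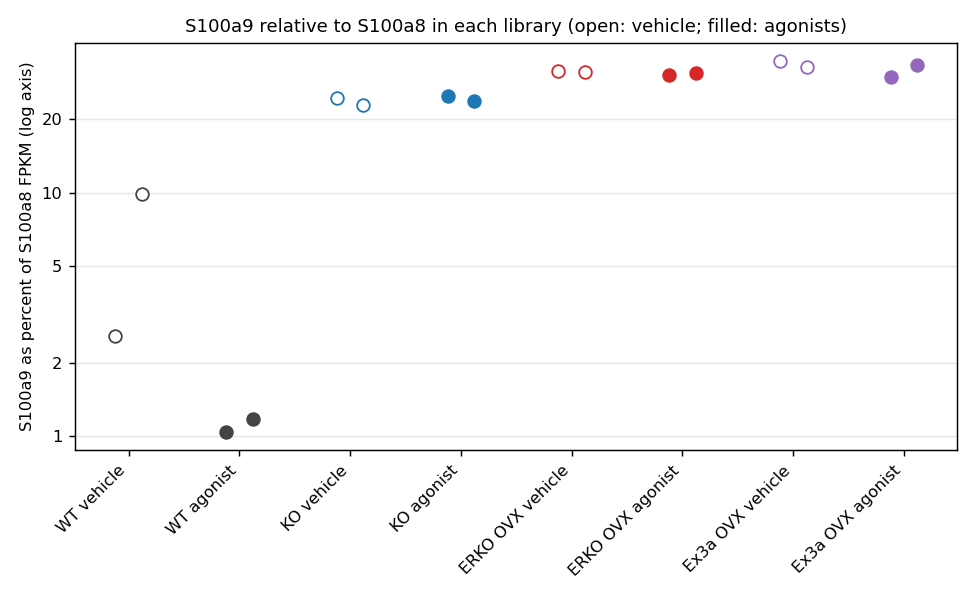
S100a9 as a percentage of S100a8 FPKM (log axis) in each library, by group; open circles are vehicle and filled circles agonist libraries. The 4 WT libraries lie between 1.04% and 9.85% and the other 12 between 22.8% and 34.6%.

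1100001G20Rik (chr11:83746940-83752642, plus strand) was at 109.0 and 115.9 FPKM in WT vehicle, 161.5 and 156.1 in WT agonist, 66.3 and 72.2 in KO vehicle and 150.6 and 160.9 in KO agonist. ERKO OVX had 800.1 and 792.6 with vehicle and 860.5 and 864.6 with agonists. Ex3a OVX had 150.8 and 154.4 with vehicle and 387.4 and 381.7 with agonists. Its ERKO OVX levels were above all others, while WT agonist, KO agonist and Ex3a OVX vehicle overlapped. Wfdc17, the neighbour on chromosome 11 (chr11:83703991-83706268, plus strand), did not share the gap between the ovariectomized arms: it had 505 and 517 FPKM in ERKO OVX vehicle and 482 and 487 in Ex3a OVX vehicle.

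Slpi (chr2:164354070-164389095, minus strand) had the narrowest range, 5.50-fold between group means. Unoperated libraries had 108.6 and 109.0 FPKM in WT vehicle, 138.3 and 141.1 in WT agonist, 44.9 and 45.3 in KO vehicle and 52.7 and 53.9 in KO agonist. ERKO OVX had 249.4 and 247.1 with vehicle and 243.1 and 246.4 with agonists, and Ex3a OVX 115.8 and 118.0 with vehicle and 103.7 and 101.8 with agonists. Groups did not overlap, and Ex3a OVX lay near WT, not near ERKO OVX. Together the 6 genes took 0.0581 to 0.0865% of the FPKM sum in unoperated vehicle libraries, 0.218 to 0.273% in unoperated agonist libraries and 0.776 to 1.48% in ovariectomized libraries.

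The first comparison asked how the genes responded to the TLR7 and TLR9 agonists in each arm. Differences are on the log2(FPKM + 1) scale with the standard error (SE) of a limma fit over all genes, and a difference is called when its p, adjusted over all genes tested, is under 0.05. In WT, Saa3 was 9.10-fold and Lcn2 4.46-fold higher with agonists (differences of 3.18 ± 0.06 and 2.12 ± 0.09). S100a8 (0.57 ± 0.11), 1100001G20Rik (0.50 ± 0.05) and Slpi (0.36 ± 0.02) were higher by smaller steps. Thus 5 of 6 were called higher, beside 30.8% of the 11346 genes tested (27.1% were lower). S100a9 differed by -1.04 ± 0.56 and was not called. That value rested on 1 library: it was -1.85 and called without WT vehicle replicate 1, and -0.23 and not called without WT vehicle replicate 2.

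In KO, Saa3 was 10.1-fold and Lcn2 8.10-fold higher with agonists (3.31 ± 0.06 and 2.94 ± 0.09), and 1100001G20Rik 2.25-fold (1.16 ± 0.05). Slpi was called higher by a small step (0.24 ± 0.02). S100a8 (0.09 ± 0.11) and S100a9 (0.14 ± 0.56) were not called. The 4 of 6 called higher stand beside 25.9% of all genes tested (25.3% were lower).

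The ovariectomized arms had higher vehicle levels of all 6 genes than the unoperated arms, and on the log2 scale Saa3 and Lcn2 differed less between treatments there than in WT or KO. In ERKO OVX 0 of 6 were called by limma (0 had an unadjusted p under 0.05), beside 18.3% of all genes called higher and 19.2% lower. Saa3 was 1.12-fold higher with agonists (0.16 ± 0.08) and Lcn2 1.16-fold (0.21 ± 0.12), while the others lay between -0.20 ± 0.80 (S100a9) and 0.12 ± 0.07 (1100001G20Rik). Each group there is 1 averaged sample, so the SE comes from the unoperated libraries. Saa3 and Lcn2 were called without either WT vehicle library (at 0.16 and 0.21), and 3 of 6, with 1100001G20Rik, when all 16 libraries entered as samples.

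In Ex3a OVX, Saa3 was 1.77-fold, Lcn2 2.29-fold and 1100001G20Rik 2.52-fold higher with agonists (0.83 ± 0.08, 1.19 ± 0.12 and 1.33 ± 0.07). Slpi was called lower (-0.18 ± 0.03). S100a8 (0.07 ± 0.16) and S100a9 (-0.02 ± 0.80) were not called. Among all genes 19.0% were called higher and 18.3% lower. Nothing is read from the shares of the 6 against those of all genes, because the levels in these groups chose the genes. Neutrophil marker sums were lower with agonists in every arm (WT 265.7 and 267.7 against 199.0 and 184.9 FPKM, KO 119.8 and 122.5 against 86.0 and 94.4, ERKO OVX 177.6 and 174.5 against 143.5 and 145.6, Ex3a OVX 183.9 and 186.1 against 155.2 and 155.4). Mmp8 makes up much of these sums, and without it they were also lower with agonists in each arm (WT 37.9 and 36.5 against 24.8 and 25.1, KO 35.4 and 35.3 against 31.2 and 32.5, ERKO OVX 111.2 and 109.2 against 93.8 and 96.6, Ex3a OVX 102.0 and 103.9 against 87.9 and 89.5). The markers did not move as one: Camp, Csf3r and Olfm4 had higher means with agonists in all 4 arms, and 8 of 17 markers had in KO. Their part in the responses was not tested.

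**Figure D3:**
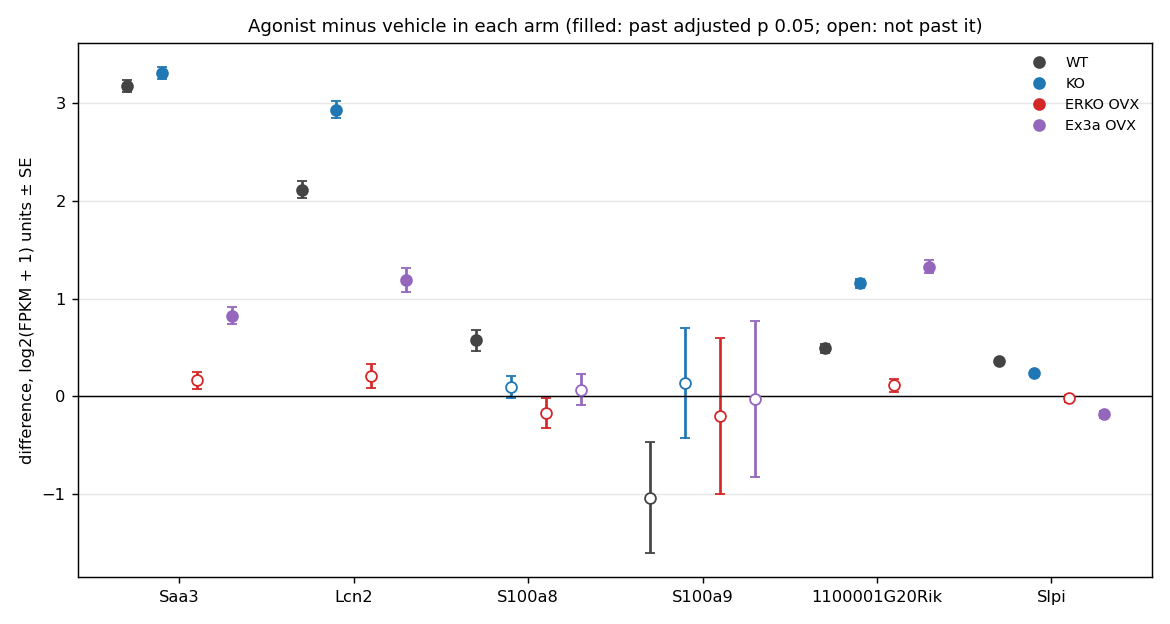
Agonist minus vehicle on the log2(FPKM + 1) scale with SE for each gene and arm; filled points are past the adjusted p of 0.05 and open points are not. Saa3 and Lcn2 lie above 2 in both unoperated arms and below 1.2 in both ovariectomized arms, and S100a9 is open in all 4.

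The agonist responses of the arms were then compared directly. Between WT and KO, the response of Lcn2 was larger in KO by 0.82 ± 0.12 and that of 1100001G20Rik by 0.66 ± 0.07, and both were called, beside 2.30% of all genes higher and 4.66% lower. Their vehicle levels were called lower in KO, and their agonist levels were not called. The Lcn2 call was lost without any one of the 4 agonist libraries of WT and KO (0.78 to 0.86), and its value ran from 0.68 without WT vehicle replicate 2 to 0.96 without WT vehicle replicate 1. Saa3 (0.14 ± 0.08), S100a8 (-0.48 ± 0.16), S100a9 (1.17 ± 0.80) and Slpi (-0.12 ± 0.03) were not called.

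Between the ovariectomized arms, the responses of Saa3 (0.66 ± 0.12), Lcn2 (0.98 ± 0.18) and 1100001G20Rik (1.21 ± 0.09) were larger in Ex3a OVX, and that of Slpi was lower (-0.16 ± 0.05). These 4 were called, beside 16.6% of all genes higher and 14.6% lower. S100a8 (0.24 ± 0.22) and S100a9 (0.18 ± 1.13) were not called. The Slpi call was lost when empirical Bayes was run without trend or robust weights.

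The next question was how the labelled receptor forms differed without surgery. With vehicle, KO had lower Saa3 (0.623 times WT, -0.67 ± 0.06), Lcn2 (0.646 times, -0.59 ± 0.09), 1100001G20Rik (-0.69 ± 0.05) and Slpi (-1.25 ± 0.02), and higher S100a8 (1.49-fold, 0.57 ± 0.11) and S100a9 (2.32 ± 0.56). All 6 were called, 2 higher and 4 lower, beside 31.5% and 28.7% of all genes. The call for S100a9 was lost when any one WT agonist, KO vehicle or KO agonist library was left out, with values of 2.20 to 2.44. It was called without either WT vehicle library, at 1.51 without replicate 1 and 3.13 without replicate 2.

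With agonists, S100a9 was 23.4-fold higher in KO (3.49 ± 0.56), the highest difference of the 11345 genes tested. Slpi stayed lower (WT 2.62 times KO, -1.37 ± 0.02), as did Saa3 (0.691 times WT, -0.53 ± 0.06). Lcn2 (0.23 ± 0.09), S100a8 (0.10 ± 0.11) and 1100001G20Rik (-0.03 ± 0.05) were not called. This makes 1 higher and 2 lower of 6, beside 27.2% and 27.6% of all genes. Lcn2 was called higher in 6 alternatives, among them both that left out a WT vehicle library. Neutrophil marker sums were lower in KO than in WT in both treatments, most of the WT sum being Mmp8 (227.8 and 231.2 FPKM in WT vehicle). Without Mmp8 they were at 37.9 and 36.5 FPKM in WT and 35.4 and 35.3 in KO with vehicle, and with agonists higher in KO (31.2 and 32.5) than in WT (24.8 and 25.1). Single markers were mixed: of 17, 8 had a higher mean in KO than in WT with vehicle and 9 a lower one. The counts with agonists were 10 and 6. Camp was higher in KO in both treatments (6.91 and 6.56 against 3.81 and 4.21 FPKM with vehicle). Csf3r was lower in KO in both treatments (0.91 and 0.92 against 1.51 and 1.31 FPKM with vehicle). The part of cell makeup in these differences was not tested.

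Ex3a OVX and ERKO OVX, labelled null and ERα short, were compared in the same way. With vehicle, all 6 genes had lower levels in Ex3a OVX. ERKO OVX was 5.34 times Ex3a OVX for S100a8 (-2.41 ± 0.16), 5.22 times for 1100001G20Rik (-2.38 ± 0.07), 4.99 times for S100a9 (-2.30 ± 0.80), 2.12 times for Slpi (-1.08 ± 0.03), 1.82 times for Lcn2 (-0.86 ± 0.12) and 1.25 times for Saa3 (-0.32 ± 0.08). All but S100a9 were called, 5 of 6 lower, beside 26.1% of all genes lower and 29.3% higher. Its SE is taken from unoperated libraries, where the WT vehicle pair spread widely, and S100a9 was called in 6 of 24 alternatives.

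With agonists, the calprotectin genes and Slpi kept their gap and the acute phase pair did not. S100a8 differed by -2.17 ± 0.16, S100a9 by -2.12 ± 0.80 (not called), 1100001G20Rik by -1.16 ± 0.07 and Slpi by -1.24 ± 0.03. Saa3 was 1.26-fold higher in Ex3a OVX (0.34 ± 0.08, not called at 0.18 when libraries were rescaled to equal FPKM sums), and Lcn2 differed by 0.12 ± 0.12 (not called). This makes 1 higher and 3 lower of 6, beside 32.1% and 30.6% of all genes. Neutrophil marker sums were close in the 2 arms (177.6 and 174.5 against 183.9 and 186.1 FPKM with vehicle), with Retnlg at 0 in every ovariectomized library and Cxcr2 at most 0.319 FPKM anywhere. Single markers were further apart: with vehicle 6 of 17 had a higher mean in Ex3a OVX and 10 a lower one. Csf3r (14.1 and 13.6 against 3.01 and 3.12 FPKM) and Prtn3 (18.2 and 19.2 against 7.14 and 6.66) were higher in Ex3a OVX, and Camp (29.3 and 30.4 against 44.8 and 46.9), Mpo (15.97 and 16.5 against 24.4 and 23.6) and Cd177 (1.32 and 1.20 against 4.51 and 3.67) were lower. Basophil and mast cell marker sums were higher in ERKO OVX, at 119.9 and 117.7 against 54.9 and 55.5 FPKM with vehicle. Their part in the gap was not tested.

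**Figure D4:**
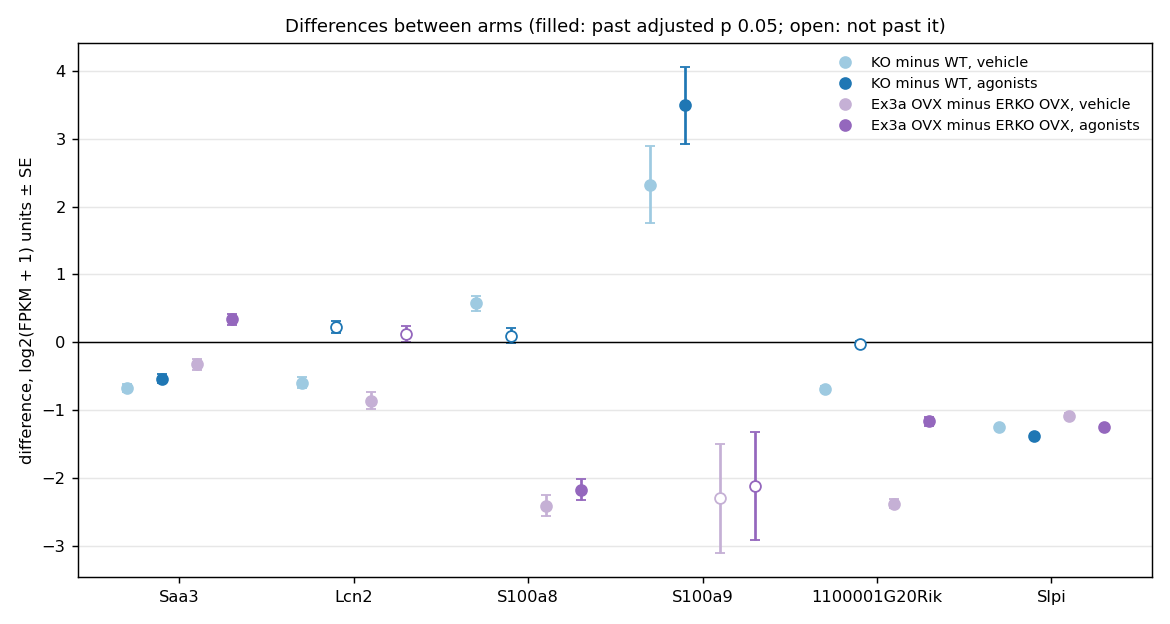
KO minus WT and Ex3a OVX minus ERKO OVX for each gene and treatment, on the log2(FPKM + 1) scale with SE; filled points are past the adjusted p of 0.05. S100a8 and S100a9 are above 0 in KO against WT and below -2 in Ex3a OVX against ERKO OVX, while Slpi is below -1 in all 4 comparisons.

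KO and ERKO OVX carry the same source label for the receptor, ERα short, and differ by surgery and estradiol pellet, and also by library set, depth and FPKM total. With vehicle, ERKO OVX was 79.3 times KO for Saa3 (6.29 ± 0.07) and 71.7 times for Lcn2 (6.07 ± 0.11), the highest and the second highest differences of the 11346 genes tested. It was 16.2 times KO for S100a9 (3.95 ± 0.69), 12.2 times for S100a8 (3.59 ± 0.13), 11.5 times for 1100001G20Rik (3.51 ± 0.06) and 5.50 times for Slpi (2.43 ± 0.03). With agonists the ratios were 8.80 (Saa3), 10.2 (Lcn2), 12.8 (S100a9), 10.1 (S100a8), 5.54 (1100001G20Rik) and 4.59 (Slpi). All 6 were called higher in both treatments, beside 40.9% of all genes higher and 40.0% lower with vehicle, and 40.1% and 38.6% with agonists.

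Several marker levels moved with this comparison. Of the 17 neutrophil lineage markers, 12 had a higher mean in ERKO OVX than in KO with vehicle and 5 a lower one. The granule genes Mpo and Ctsg were at or near 0 in unoperated libraries (0 to 0.146 and 0 to 0.0509 FPKM) and higher in ovariectomized ones (8.19 to 24.4 and 4.48 to 12.5), and Camp was at 3.81 to 17.0 against 29.3 to 49.1. Lower in ERKO OVX vehicle than in KO vehicle were Cebpe (2.57 and 2.21 against 7.65 and 7.72 FPKM), Ceacam1 (3.84 and 3.71 against 14.7 and 15.4), Padi4 (0.968 and 1.10 against 2.29 and 2.32), Mmp8 (66.4 and 65.3 against 84.5 and 87.2) and Retnlg. The summed neutrophil list was at 119.8 and 122.5 FPKM in KO vehicle and 177.6 and 174.5 in ERKO OVX vehicle, and Emr1 (F4/80) at 39.2 and 39.95 against 474.1 and 478.0. Their part in the differences was not tested. Surgery, estradiol, depth and library set cannot be told apart here.

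Other genes around these proteins came from lists, and adjusted p-values from the same limma fit are given for genes that are not among the 6. Of 15 receptors and binding partners, 12 passed the filter. With agonists WT and KO each had 7 higher and 4 lower, ERKO OVX 5 and 5, and Ex3a OVX 4 and 4. The list's median difference was 0.26 in WT and 0.21 in KO, beside 0.02 and 0.01 over all genes tested. In ERKO OVX against KO with vehicle 10 were higher and 1 lower, beside 40.9% and 40.0% of all genes (median 0.90, beside 0.01). After rescaling to equal FPKM sums 9 were higher and 3 lower of 13. Fpr1 and Fpr2, formyl peptide receptors of which Fpr2 binds serum amyloid A, were higher in WT by 2.24 ± 0.04 (limma adjusted p = 2.18e-10) and 1.64 ± 0.04 (limma adjusted p = 1.30e-09), and Tlr2 by 1.37 ± 0.03 (limma adjusted p = 1.15e-09). All 3 had smaller responses in KO, with limma differences of -0.71 ± 0.06 (adjusted p = 0.00020), -0.61 ± 0.06 (adjusted p = 0.000403) and -0.59 ± 0.05 (adjusted p = 0.000187). Of the 12, 0 had a larger and 4 a smaller response in KO, beside 2.30% and 4.66% of all genes. With vehicle, all 3 were higher in KO than in WT. Fpr1 was at 69.0 and 65.2 against 35.1 and 37.1 FPKM, and Tlr2 at 78.0 and 74.4 against 38.5 and 40.3. With agonists, Fpr1 and Tlr2 were also higher in KO, and Fpr2 was lower. Tlr4, a receptor of calprotectin, was lower with agonists in all 4 arms, from -0.37 to -0.60. It was higher with vehicle in Ex3a OVX than ERKO OVX (0.69 ± 0.05, limma adjusted p = 1.18e-06), where S100a8 was lower. The lipocalin 2 receptors Slc22a17 and Lrp2 did not exceed 0.129 and 0.00715 FPKM, and Ager, another receptor of S100 proteins, did not exceed 0.660.

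Of 26 other acute phase genes, 24 had rows and 9 passed the filter. Those below it included Crp, Apcs and the fibrinogen genes, which hepatocytes make. In ERKO OVX against KO with vehicle, 8 of the 9 were higher and 1 lower, beside 40.9% and 40.0% of all genes. The median was 1.52, beside 0.01 over all genes. Haptoglobin (Hp), the carrier of free hemoglobin, was higher by 3.44 ± 0.04 (limma adjusted p = 3.98e-12), with 56.2 and 53.7 FPKM in KO and 605.7 and 608.8 in ERKO OVX. Orm1 (orosomucoid) was higher by 2.90 ± 0.13 (limma adjusted p = 8.94e-08) and ceruloplasmin (Cp) by 2.20 ± 0.05 (limma adjusted p = 1.48e-10). Reads of Orm1 may be shared with its near copies.

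The other acute phase genes did not follow Saa3 throughout. With agonists in WT, 5 of 9 were higher and 1 lower, beside 30.8% and 27.1% of all genes (median 0.48, beside 0.02). The higher ones of the list included the pentraxin Ptx3 (2.48 ± 0.07, limma adjusted p = 1.69e-09). In Ex3a OVX 2 were higher and 4 lower with agonists, beside 19.0% and 18.3% of all genes. Hp was lower there (-0.20 ± 0.04, limma adjusted p = 0.00613), while Saa3 was higher. In Ex3a OVX against ERKO OVX with vehicle 3 were higher and 5 lower, beside 29.3% and 26.1% of all genes (median -0.44, beside 0.02). The metallothioneins Mt1 (-1.57 ± 0.03, limma adjusted p = 5.93e-10) and Mt2 (-1.66 ± 0.06, limma adjusted p = 3.31e-08), which bind zinc and copper, were among the lower, and Cp among the higher (1.61 ± 0.06, limma adjusted p = 1.42e-08).

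The other S100 proteins and alarmins had opposite directions in the 2 pairs of arms, as S100a8 and S100a9 had. Of 18 listed, 13 were tested. In KO against WT with vehicle, 12 of the 13 were higher and none lower, beside 31.5% and 28.7% of all genes. The median was 0.39, beside 0.01 over all genes. S100a4 was higher by 1.50 ± 0.02 (limma adjusted p = 2.92e-11), with 441.9 and 443.5 FPKM in WT and 1254 and 1255 in KO, and S100a6 by 0.70 ± 0.02 (limma adjusted p = 9.72e-09). In Ex3a OVX against ERKO OVX with vehicle, 8 of 13 were lower and 2 higher, beside 26.1% and 29.3% of all genes. The median was -0.45, beside 0.02 over all genes. Il33, a nuclear alarm cytokine, differed by -1.54 ± 0.11 (limma adjusted p = 1.47e-06), S100a6 by -1.18 ± 0.03 (limma adjusted p = 3.39e-09) and S100a4 by -1.004 ± 0.03 (limma adjusted p = 5.03e-09). The 2 pairs of arms share no library. The list's counts in both comparisons were unchanged when libraries were rescaled to equal FPKM sums or by the upper quartile.

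**Figure D5:**
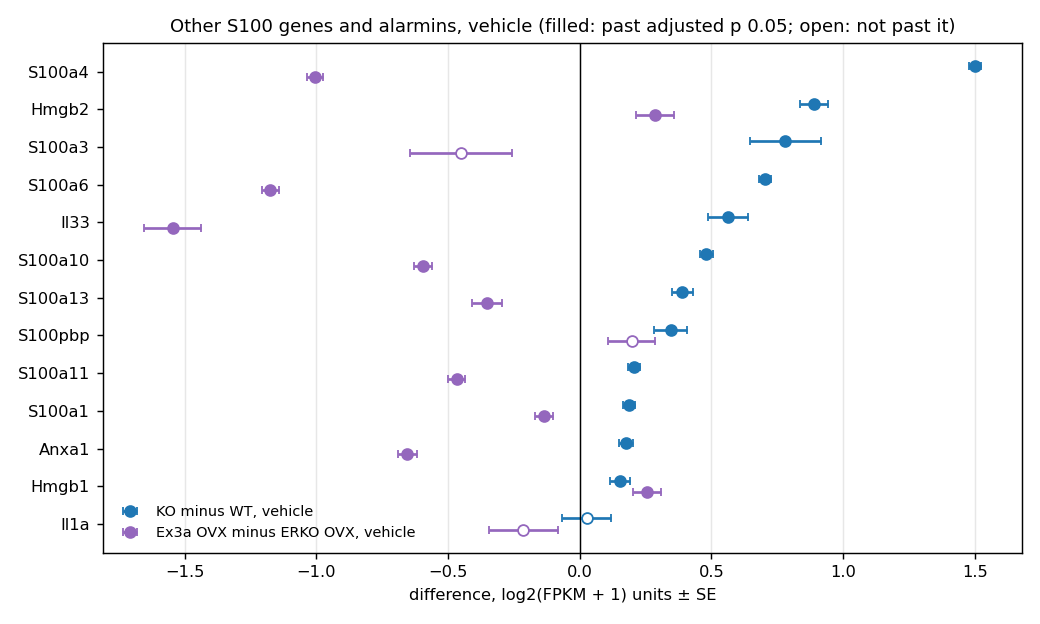
KO minus WT and Ex3a OVX minus ERKO OVX with vehicle for the 13 other S100 genes and alarmins tested, on the log2(FPKM + 1) scale with SE; filled points are past the adjusted p of 0.05. All but Il1a are filled and above 0 in KO against WT, and 8 are filled and below 0 in Ex3a OVX against ERKO OVX.

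With agonists, 7 of the 13 were lower and 2 higher in WT (median -0.11, beside 0.02 over all genes), where 27.1% of all genes were lower and 30.8% higher. KO had 6 lower and 1 higher (median -0.12, beside 25.3% and 25.9% of all genes). ERKO OVX had 8 and 2 (median -0.25, beside 19.2% and 18.3%), and Ex3a OVX 7 and 1 (median -0.22, beside 18.3% and 19.0%). The median over all genes was between 0 and 0.01 in these 3 arms. The alarm cytokine Il1a was higher in each arm, by 3.82 ± 0.09 in WT (limma adjusted p = 1.12e-07) and 2.29 ± 0.13 in ERKO OVX (limma adjusted p = 5.6e-05). In ERKO OVX against KO with vehicle 8 were higher and 4 lower, beside 40.9% and 40.0% of all genes. After rescaling to equal sums 3 were higher and 7 lower, so that the list's direction there depends on the scale.

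Of 18 WAP domain and antimicrobial genes, 13 had rows and 8 passed the filter. All 8 were higher in ERKO OVX than in KO with vehicle (7 of 8 after rescaling to equal sums), beside 40.9% of all genes. The median was 1.49, beside 0.01 over all genes. Wfdc17 was higher by 2.67 ± 0.05 (limma adjusted p = 5.9e-11) and Camp, the cathelicidin precursor, by 2.60 ± 0.06 (limma adjusted p = 1.6e-10). Between the ovariectomized arms, 2 were higher and 1 lower in Ex3a OVX with vehicle, beside 29.3% and 26.1% of all genes. Lysozyme 2 (Lyz2) was higher there by 1.07 ± 0.05 (limma adjusted p = 9.2e-08), while 1100001G20Rik and Slpi were lower. With agonists, Wfdc17 was higher in all 4 arms, by 0.42 to 0.91.

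Slpi inhibits serine proteases, and 16 of 17 listed proteases and inhibitors passed the filter. Ctsg (cathepsin G), a granule protease that Slpi inhibits, was higher in ERKO OVX than in KO with vehicle by 3.68 ± 0.06 (limma adjusted p = 4.3e-11). In KO against WT with vehicle, where Slpi was lower, 6 were higher and 4 lower, beside 31.5% and 28.7% of all genes (median 0.03, beside 0.01). The intracellular protease inhibitors Serpinb1a (2.67 ± 0.03, limma adjusted p = 1.15e-11), Serpinb6b (1.64 ± 0.03, limma adjusted p = 8.79e-11) and Serpinb9 (1.56 ± 0.03, limma adjusted p = 1.78e-10) were among the higher, and the gelatinase Mmp9 was lower (-2.08 ± 0.04, limma adjusted p = 1.42e-10). In Ex3a OVX against ERKO OVX with vehicle 6 were higher and 8 lower (median -0.16, beside 0.02 over all genes, of which 29.3% were higher and 26.1% lower), with Stfa3, a cystatin A relative, at -2.89 ± 0.06 (limma adjusted p = 3.58e-10) and Serpinb1a at -1.98 ± 0.05 (limma adjusted p = 1.21e-09). Reads of the Stfa genes may be split between near-identical copies.

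Among 18 inducing receptors and transcription factors, 10 were higher with agonists in WT and 8 lower, beside 30.8% and 27.1% of all genes. KO had 10 and 6, beside 25.9% and 25.3%. The medians were 0.23 and 0.16, beside 0.02 and 0.01 over all genes. Nfkbiz, which encodes IκBζ, was higher by 2.98 ± 0.04 in WT (limma adjusted p = 4.44e-11), 2.47 ± 0.04 in KO (limma adjusted p = 1.31e-10), 1.20 ± 0.05 in ERKO OVX (limma adjusted p = 1.37e-06) and 1.12 ± 0.05 in Ex3a OVX (limma adjusted p = 1.2e-06). Its response was smaller in KO than in WT (-0.51 ± 0.05, limma adjusted p = 0.000536), where that of Lcn2 was larger, and did not pass the threshold between the ovariectomized arms (-0.08 on the log2 scale). Cebpd, a C/EBP factor, had a larger response in KO (0.37 ± 0.07, limma adjusted p = 0.0104). Of the 18 genes, 1 was called larger in KO and 4 smaller. Whether any of them bears on the responses of the 6 genes was not tested.

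Levels of the factors differed between arms as well. With vehicle, Cebpa (-1.06 ± 0.04, limma adjusted p = 4.03e-08) and Cebpb (-0.74 ± 0.06, limma adjusted p = 2.86e-06) were lower in KO than in WT. In ERKO OVX against KO, Cebpd was higher by 1.52 ± 0.06 (limma adjusted p = 4.13e-09) and Cebpb by 1.33 ± 0.07 (limma adjusted p = 5.35e-08), and Cebpe, a factor of granulocyte maturation, was lower (-1.36 ± 0.08, limma adjusted p = 1.32e-07). In Ex3a OVX against ERKO OVX, Csf3r, the G-CSF receptor, was higher (1.87 ± 0.07, limma adjusted p = 2.93e-08) and Il1r1, the IL-1 receptor, lower (-1.28 ± 0.07, limma adjusted p = 2.49e-07). Esr1 itself, summed over alleles, was at 0.684 to 1.38 FPKM in WT and 1.77 to 2.57 in KO. ERKO OVX had 0.982 to 1.16 and Ex3a OVX 0.283 to 0.364.

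The genes whose profile over the 8 group means was most like each of the 6 were found by Pearson's r of log2(FPKM + 1) among 3950 tested genes spanning at least 1 log2 unit. For Saa3 they were Nme6 (0.993), Slc31a1 (0.989) and Hcls1 (0.983), and for Lcn2 Nme6 (0.990), Susd2 (0.990) and Pilra (0.986). S100a8 was most like Stfa2 (0.996), Mcemp1 (0.995) and Gm5416 (0.993), and S100a9 most like Serpinb9g (0.991), Raet1e (0.989) and Serpinb9f (0.988). For 1100001G20Rik they were Procr (0.978), Krt16 (0.973) and Stfa3 (0.971), and for Slpi Rbp4 (0.989), Fam46c (0.982) and Panx1 (0.977). Among the 6, r was 0.897 between S100a8 and S100a9, 0.923 between S100a8 and 1100001G20Rik and 0.458 between S100a9 and Slpi. The 8 points share the gap between unoperated and ovariectomized libraries, and these r are given as a description.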

How the data were processed

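RNA-seq values of 16 libraries from bone marrow-derived dendritic cells were used as deposited. The authors' table gives FPKM per gene. Tools listed by the submitters' processing notes are STAR, HTSeq, DESeq2, cutadapt and FastQC, with build mm10. The sources used here do not name the program behind the FPKM. FPKM divides by transcript length and library total, by which a few abundant genes would lower all others. Here sums ran from 481738 to 696321 FPKM, while the median log2 difference over all genes was -0.01 to 0.02 in every comparison. Which total was used for scaling was not checked.

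Of 24001 rows, 1230 small RNA rows were left out, 5 isolated zeros were taken as missing, and rows reaching 1 FPKM in 2 libraries were tested. limma 3.58.1 (R 4.3.3, trend, robust) was fitted to log2(FPKM + 1) of 12 samples with 1 coefficient per group, 4 residual degrees of freedom, and Benjamini-Hochberg adjustment within each comparison. Fold changes of low genes are understated by the pseudocount of 1. Depth was estimated from the step size of low values in 14391 single-transcript genes (70.8 to 73.9% whole within 0.1 fragment). That estimate takes FPKM as scaled to the fragments of the library, which was not checked. The fit was tested on simulated data. The 6 genes, the lists and the comparisons were chosen with earlier results of these data known, and promoter motifs were settled after matches had been seen. From each list, at most 4 called genes per comparison with the largest differences are named, plus receptors or partners a sentence needs. Alternatives varied pseudocount, filter, scaling, averaging, empirical Bayes, replicate block and library left out.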

Additional observations from a re-analysis of the deposited data

Results flagged for a closer look

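For 4 of the 6 genes the difference in agonist response between 2 arms was past the adjusted threshold of the limma fit. Between KO and WT the log2 response of Lcn2 was larger in KO by 0.82 and that of 1100001G20Rik by 0.66. Between Ex3a OVX and ERKO OVX the response was larger in Ex3a OVX by 0.66 for Saa3, 0.98 for Lcn2 and 1.21 for 1100001G20Rik, and that of Slpi was lower (-0.16). Lcn2 and 1100001G20Rik thus differed in both pairs of arms, which share no library. The vehicle level of each was the lower one in the arm with the larger response (KO and Ex3a OVX). The Lcn2 call between KO and WT was lost without any one agonist library of these arms, and the Slpi call with plain empirical Bayes. The genes were chosen by their levels in these groups, so the calls describe the values and are no independent evidence of a difference.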

How the results depend on the processing

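Over 24 alternatives, 0 of the 49 called differences of the 6 genes reversed, and calls changed for 15 of all 72. A pseudocount of 5 FPKM gave 2 genes higher in KO against WT with agonists (1 as reported) and 1 lower in the response difference of KO and WT (0 as reported). Rescaling to equal sums gave 1 higher for agonists in ERKO OVX (0 as reported), 2 higher in KO against WT and 0 in Ex3a OVX against ERKO OVX with agonists (1 as reported each). The upper quartile gave 2 higher in KO against WT with agonists. With all 16 libraries as samples these counts were 3 for agonists in ERKO OVX, 2 in KO against WT with agonists and 2 lower in the response difference of KO and WT, and 5534 genes were called in that of Ex3a OVX and ERKO OVX (3546 as reported). Plain empirical Bayes gave 0 lower there (1 as reported). With no filter, 404 genes were called in the response difference of KO and WT (790 as reported). The cause was not tested.

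Leaving out each library in turn, that count ran from 431 to 792 (431 and 433 without WT vehicle replicates 1 and 2, 485 without WT agonist replicate 2, 433 and 498 without KO vehicle replicates 1 and 2), with 1 to 4 of the 6 genes higher and 0 to 1 lower. Genes lower for agonists in WT ran from 0 to 1, higher for agonists in ERKO OVX from 0 to 2, higher in KO against WT from 1 to 2 in both treatments.

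Replicate numbers are shared, but deviations of same-numbered unoperated libraries did not correlate (r from -0.07 to 0.05). With a replicate block, counts of the 6 genes were the same in all 12 comparisons and called genes stayed within 1.5 times (653 against 790 for the response difference of KO and WT).

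Rescaling to equal sums moved the share of called genes that were higher from 53.3 to 32.2% (WT agonist; 43.1% by upper quartile), 48.9 to 70.4% (ERKO OVX agonist), 51.0 to 33.8% (Ex3a OVX agonist), 49.6 to 71.3% (KO against WT, agonists), 51.2 to 30.5% (Ex3a OVX against ERKO OVX, agonists; 38.0%), 50.6 to 22.2% and 51.0 to 26.1% (ERKO OVX against KO, vehicle and agonists), 33.0 to 74.1% (response difference KO and WT) and 53.2 to 21.5% (Ex3a OVX and ERKO OVX; 40%). It moved the median of all genes to -0.36 and -0.28 in ERKO OVX against KO.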
